A study of Mus musculus with 6 samples.

Results

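Asn-GTT is the transfer RNA that carries asparagine into proteins, and its fragments were measured in the brains of young and aged mice. Among the tRNA-derived small RNAs (tDRs) of the series, those whose parent tRNAs are all named Asn-GTT, with at least 1 mature parent, were taken, which gave 13 of 591 tDR IDs. The brains came from C57BL/6 mice, a common inbred strain, and small RNA had been sequenced in 3 libraries of young mice aged 3 months and 3 of old mice aged 22 months. No other treatment or allele is named in the labels, which give neither the brain region nor whether each library is a separate animal, so the spread behind each p-value is that between libraries and may be technical. The table lists tRNA fragments only, and the tissue was not checked against brain markers here.

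A cell cuts a tRNA into fragments mainly in the loops of its folded form. Cuts in the anticodon loop, made for example by the nuclease angiogenin under stress, give long fragments known as tRNA-derived stress RNAs, and cuts in the other stem-loops give shorter pieces. Mature tRNAs end in CCA, which is added after the precursor has lost its leader and trailer, so a fragment with that end comes from a processed tRNA. Asparagine, aspartate, histidine and tyrosine tRNAs of the cytosol share an anticodon that begins with guanine, which vertebrate cells replace by the modified base queuosine. Fragments of aged brain are the subject of the series, whose title concerns a fragment of glutamate tRNA.

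The 16 Asn-GTT parents in the table are 11 mature tRNAs and 5 precursors. The mature names hold only 3 sequences, each of 77 nt, since the 9 names from Asn-GTT-3-1 to Asn-GTT-3-9 are identical. They are shown because the fragments differ in which of these 3 they are listed under. Capitals mark the bases that differ between the 3, the anticodon gtt lies at positions 35 to 37 counted from the 5′ end, and all end in the added cca.
Asn-GTT-3: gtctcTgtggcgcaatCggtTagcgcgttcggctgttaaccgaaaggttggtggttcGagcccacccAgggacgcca
Asn-GTT-1-1: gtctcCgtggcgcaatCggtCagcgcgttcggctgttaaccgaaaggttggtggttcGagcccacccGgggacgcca
Asn-GTT-2-1: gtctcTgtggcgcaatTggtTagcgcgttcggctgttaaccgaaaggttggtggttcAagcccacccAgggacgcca
Asn-GTT-1-1 differs from Asn-GTT-3 by T6C, T21C and A68G, and Asn-GTT-2-1 by C17T and G58A. RefSeq lists 13 Asn-GTT genes of 74 nt in the mouse build GRCm38.p6, of which 6 lie on chromosome 3, from n-TNgtt4 (start 96322074) to n-TNgtt12 (end 96497854). The other 7 lie on chromosomes 1, 2, 5, 10, 11 and 15. The table gives no coordinates and its names were not paired with those genes.

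The 13 IDs fall into 9 groups with an identical list of parents, and by mature parent into 3 classes. The first class has 6 IDs listed under the 9 copies of Asn-GTT-3, the second has 4 listed under mature Asn-GTT-1-1 and not under Asn-GTT-2-1, and the third has 3 listed under both Asn-GTT-1-1 and Asn-GTT-2-1. These classes were drawn after the values were known. AS-tDR-000195 and AS-tDR-000197 name the 9 mature copies of Asn-GTT-3 and no precursor. Any stretch of 15 nt or more that those copies hold and no other Asn-GTT parent does covers positions 58 to 75, shown in capitals. These are the 3′ arm and, at position 75, the first base of the added CCA end.
AS-tDR-000195 and AS-tDR-000197, Asn-GTT-3: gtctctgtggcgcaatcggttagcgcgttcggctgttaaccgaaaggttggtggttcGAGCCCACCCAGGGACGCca
The other two classes are shown by the longest stretch that all their parents share, with the anticodon in capitals. It spans positions 22 to 67 for AS-tDR-010804, AS-tDR-012677 and AS-tDR-015068, and 22 to 57 for AS-tDR-001757, AS-tDR-001746 and AS-tDR-011106.
Shared by the parents of AS-tDR-010804, AS-tDR-012677 and AS-tDR-015068: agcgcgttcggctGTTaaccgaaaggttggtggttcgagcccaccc
Shared by the parents of AS-tDR-001757, AS-tDR-001746 and AS-tDR-011106: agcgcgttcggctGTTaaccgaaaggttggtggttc
The parent lists do not place these fragments. Both stretches also occur in mature Asn-GTT-3, under which the 6 IDs are not listed. In 7 of the 10 Asn-GTT IDs that name a precursor, the mature tRNA of the same name is missing from the list (70%). The same held for 75 of the 296 IDs in the whole table that name a precursor (25.3%). Those 296 were not limited to IDs with a mature parent, and an ID listed under precursors only always lacks the mature name. A stretch of at least 15 nt held by all listed parents and by no other parent of the same anticodon exists for 3 of the 13 Asn-GTT IDs and for 505 of all 591 (85.4%). The table gives the parent's sequence and not the fragment's, so where in the tRNA it lies and how long it is were not determined, and the rule behind the lists was not tested.

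Listed tags per library summed to between 44156 and 57425 at 3 months and to between 71121 and 96130 at 22 months. A library lists only counts above a minimum, which was 8 to 11 tags at 3 months and 13 to 17 at 22 months, and gives the rest as 0. Levels below are CPM, a fragment's tags relative to the library's total over the tested IDs, after TMM, a scaling that sets the bulk of the IDs level between libraries. The TMM factors lay between 1.03 and 1.1 at 3 months and were 1.05, 0.853 and 0.889 in 22 month replicates 1, 2 and 3. On this scale the minimum was 174 to 187 CPM at 3 months and 175, 208 and 236 CPM in the 22 month replicates. Among the 22 month libraries, replicate 3 stood apart (chi-square per degree of freedom 54.8 and 59.7 against replicates 1 and 2, and 16.9 between those). The values at 3 months were 6.6 to 10.2, from libraries with fewer tags, and this measure grows with depth, so the ages cannot be compared on it.

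Of the 11 Asn-GTT fragments that passed the filter on low counts, 3 rose at 22 months, 0 fell and 8 did not pass the threshold (edgeR, adjusted p under 0.05 over the 439 IDs tested). Over all IDs tested 4.78% rose and 1.82% fell. The 3 that rose were AS-tDR-000197, AS-tDR-010797 and AS-tDR-015068, each at an adjusted p of 0.0489. The adjusted p of all 29 IDs called by edgeR lay between 0.0489 and 0.049, just under the threshold. AS-tDR-015068 was at 0 in every young library and so passed the filter only through the aged ones, where it had to differ. Of the 9 above 0 in all 6 libraries 2 rose, against 5.52% of the 290 such IDs. At an unadjusted p under 0.05 there were 7 of the 11 higher and 0 lower, against 15.7% and 9.79% of all IDs tested. DESeq2 called 7 higher and 0 lower, against 13.4% and 8.66%. The 3 calls were lost, with 0 left, when any library at 3 months or 22 month replicate 1 or 2 was left out, and without 22 month replicate 3 the calls were 2, AS-tDR-000197 and AS-tDR-010797. They were also lost when libraries were scaled by their totals alone. The losses ran across the table, where 29 IDs were called at first. No ID at all was called by totals alone or without 3 month replicate 1, 2 or 3 or 22 month replicate 1, while 14 were called without 22 month replicate 2 and 11 without replicate 3.

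The log2 difference was positive for 9 of the 11 and negative for 2, and its median was 1.20, against -0.16 over all 439 IDs, of which 42.6% were positive. With IDs at 0 in every library of one age set to their bound the medians were 1.20 and -0.15. Scaled by library totals alone the median over all IDs moved by -0.18, to -0.34, and that of the Asn-GTT fragments to 1.05, with 9 again positive. In 8 of the 11 every 22 month library lay above every 3 month library, against 19.4% of all IDs tested. None of the 11 was separated in the other direction, against 20% of all IDs. By library totals alone AS-tDR-000195 and AS-tDR-012678 overlapped, and 14.4% of all IDs were separated upward. On that scale AS-tDR-001757 was separated downward, but only by a near tie, with 366 CPM in replicate 1 of both ages after rounding. AS-tDR-015068, at 0 in every young library, had to count among the 8 and among the 9 with a positive difference. Of the 9 IDs above 0 in all 6 libraries, 8 were positive and 1 was negative.

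**Figure D1:**
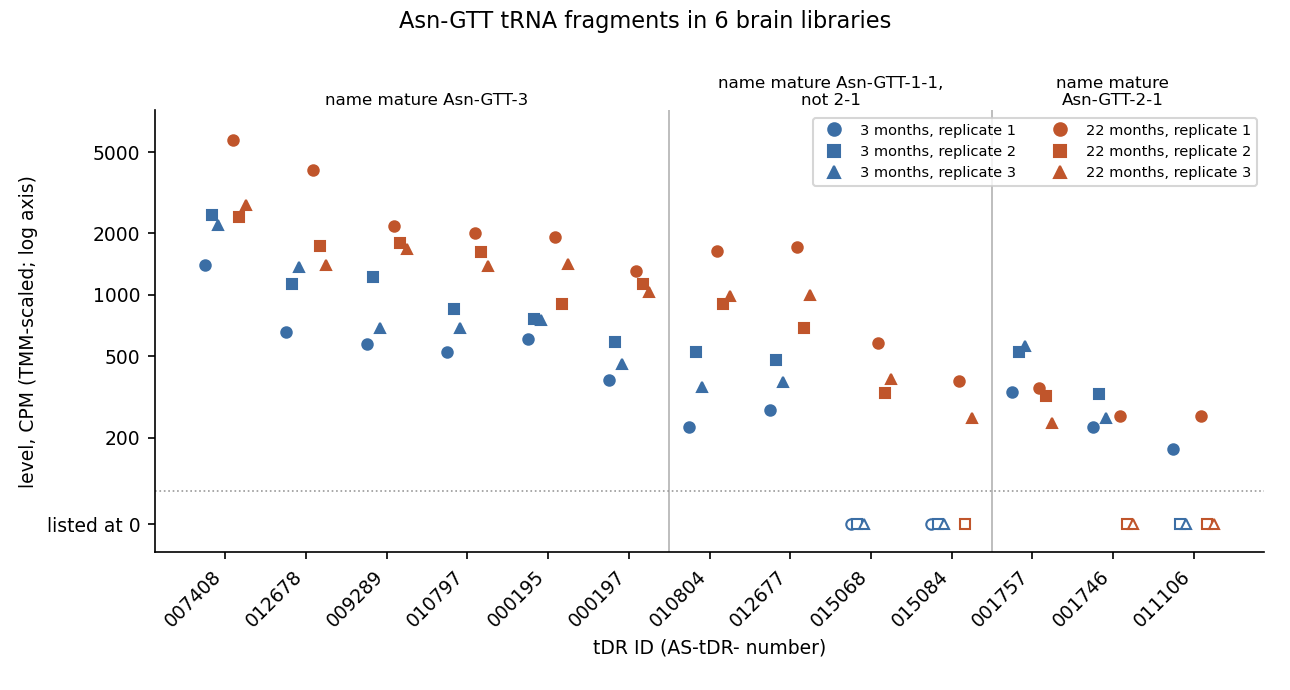
Level of each of the 13 Asn-GTT IDs (horizontal axis) in CPM on a log axis, with 3 month libraries in blue and 22 month libraries in orange, and replicates 1, 2 and 3 as circles, squares and triangles. Open symbols under the dotted line are values listed at 0. In the left and middle blocks most orange points lie above the blue ones, while in the right block, the IDs listed under mature Asn-GTT-2-1, the colours mix.

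The most abundant Asn-GTT fragment by tags was AS-tDR-007408, listed under the 9 copies of Asn-GTT-3 and all 5 precursors. It lay at 1406, 2459 and 2206 CPM in 3 month replicates 1, 2 and 3 and at 5731, 2399 and 2739 CPM in the 22 month replicates. In the aged libraries replicates 1 and 3 lay above every young library, replicate 1 by far the more, and replicate 2 lay within their range. Its log2 difference was 0.84 (SE 0.41), short of the threshold (edgeR, adjusted p = 0.261), and 0.46 without 22 month replicate 1.

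AS-tDR-012678 was next, listed under the 9 copies of Asn-GTT-3 and the precursor of Asn-GTT-3-6. Its levels were 655, 1132 and 1374 CPM at 3 months and 4099, 1738 and 1404 CPM at 22 months. Replicate 1 was again far above the rest at 22 months, and the lowest aged library lay just above the highest young one, an order that library totals alone did not give. At 1.20 (SE 0.50) the log2 difference missed the threshold (edgeR, adjusted p = 0.2), and it was 0.69 without 22 month replicate 1.

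AS-tDR-009289 has the same 14 parents as AS-tDR-007408. It lay at 575, 1219 and 687 CPM at 3 months and at 2171, 1787 and 1668 CPM at 22 months. Here all 3 aged libraries lay above the young ones and close to each other. The log2 difference was 1.19 (SE 0.32) and missed the threshold (edgeR, adjusted p = 0.0702).

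AS-tDR-010797 shares its 10 parents with AS-tDR-012678 and rose. Its levels were 527, 849 and 687 CPM at 3 months and 2009, 1616 and 1377 CPM at 22 months. The means were 688 ± 161 and 1667 ± 319 CPM (SD, n = 3 each), 2.42-fold higher at 22 months. The groups did not overlap, with or without TMM scaling, and the log2 difference was 1.28 (SE 0.26; edgeR, adjusted p = 0.0489). Over the alternative settings it lay between 1.09 and 1.53.

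The fragments listed under mature Asn-GTT-3 alone are AS-tDR-000197 and AS-tDR-000195. AS-tDR-000197 rose, from 384, 588 and 458 CPM at 3 months to 1308, 1126 and 1029 CPM at 22 months. Its means were 476 ± 103 and 1154 ± 142 CPM (SD, n = 3 each), 2.42-fold higher, and the aged libraries differed little from each other. The log2 difference was 1.28 (SE 0.24; edgeR, adjusted p = 0.0489), between 1.08 and 1.53 over the alternatives. AS-tDR-000195 lay at 607, 762 and 749 CPM at 3 months and at 1915, 906 and 1418 CPM at 22 months. Its log2 difference was 1.0 (SE 0.32) and missed the threshold (edgeR, adjusted p = 0.0995), and scaled by library totals alone its groups overlapped.

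The fragments listed under mature Asn-GTT-1-1 and not Asn-GTT-2-1 included the highest log2 differences among the Asn-GTT fragments above 0 in all 6 libraries. AS-tDR-010804 had 14, 24 and 17 tags at 3 months and 121, 74 and 71 in the aged libraries. In CPM this was 224, 522 and 354 CPM against 1632, 906 and 987 CPM. AS-tDR-012677, with the same 5 parents, had 17, 22 and 18 tags at 3 months and 127, 56 and 72 in the aged ones. In CPM this was 272, 479 and 375 CPM against 1712, 686 and 1001 CPM. The aged libraries lay above the young ones in both, and the young counts stood not far above the listing minimum of 8 to 11 tags. The log2 differences of 1.69 (SE 0.41) and 1.60 (SE 0.42) missed the threshold (edgeR, adjusted p = 0.0582 and 0.0676).

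AS-tDR-015068, listed under Asn-GTT-1-1 and the precursors of Asn-GTT-3-3, Asn-GTT-3-4 and Asn-GTT-3-8, was listed at 0 in all 3 libraries at 3 months. It had 43, 27 and 28 tags at 22 months, or 580, 330 and 389 CPM, so each aged library lay above the minimum and no young one did. The rise was at least 2.42-fold against the mean of the smallest listed levels at 3 months. The adjusted p of 0.0489 (edgeR) came from the fit that took the zeros as counted, and does not test this bound. The ID passed the filter only through the aged libraries, so it could only come out higher there. AS-tDR-015084, listed under Asn-GTT-1-1 only, was also at 0 in the 3 young libraries and had 28, 0 and 18 tags at 22 months. It did not pass the filter on low counts and was not tested.

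**Figure D2:**
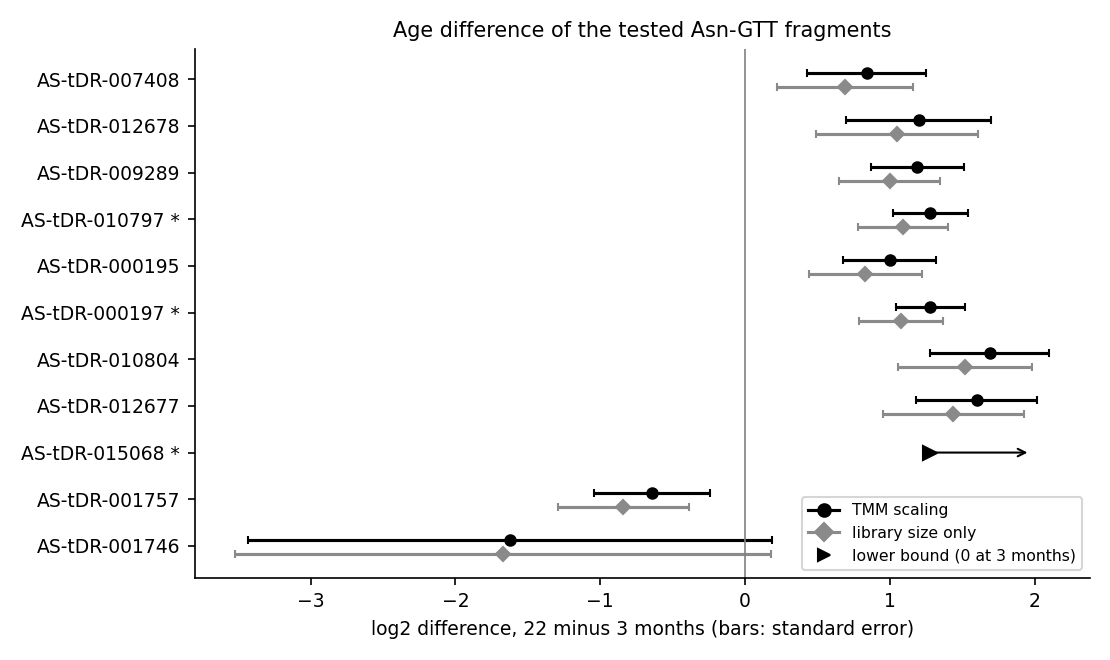
Log2 difference between 22 and 3 months (horizontal axis, positive where the aged libraries are higher) of the 11 tested Asn-GTT IDs, with standard errors, after TMM scaling (black circles) and by library totals alone (grey diamonds). The triangle with an arrow is the lower bound for AS-tDR-015068, listed at 0 at 3 months, and asterisks mark the 3 IDs that rose. AS-tDR-001757 and AS-tDR-001746 are the 2 on the negative side, under both scalings.

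The fragments listed under Asn-GTT-2-1 included the 2 tested IDs with a negative log2 difference, neither of which passed. AS-tDR-001757, listed under 5 precursors and mature Asn-GTT-1-1 and Asn-GTT-2-1, had 21, 24 and 27 tags at 3 months and 26, 26 and 17 at 22 months, when the libraries were deeper. In CPM this is 336, 522 and 562 against 351, 318 and 236, so 2 of the aged libraries lay below the young ones and the groups overlapped. By library totals alone the levels were 366, 532 and 611 CPM at 3 months against 366, 270 and 200 CPM, so no aged library lay above a young one. The log2 difference was -0.64 (SE 0.40) and short of the threshold (edgeR, adjusted p = 0.366).

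AS-tDR-001746 had 14, 15 and 12 tags at 3 months and 19, 0 and 0 at 22 months. Since 22 month replicates 2 and 3 list nothing below 17 tags, their zeros stand for any level below 208 and 236 CPM, and the young libraries lay at 224, 326 and 250 CPM. At -1.62 the log2 difference had an SE of 1.81 and did not pass (edgeR, adjusted p = 0.641). It rests on the zeros, and was -0.27 with each 0 replaced by a count 1 under the library's minimum. Leaving out 1 library moved it to -7.00 without 22 month replicate 1, -1.04 without replicate 2 and -1.02 without replicate 3, and limma-voom gave -3.56. AS-tDR-011106 had 11, 0 and 0 tags at 3 months and 19, 0 and 0 at 22 months, the highest value thus in an aged library, and was not tested.

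Summed over the 13 IDs, Asn-GTT fragments took 0.587%, 0.902% and 0.838% of all listed tags in 3 month replicates 1, 2 and 3, and 2.34%, 1% and 1.06% in the 22 month replicates. All 3 aged libraries lay above the young ones, but replicates 2 and 3 only just, and replicate 1 took more than the other two together. The means were 0.776% ± 0.166 and 1.47% ± 0.753 (SD, n = 3 each; exact two-sided permutation test, p = 0.1, the smallest that 3 against 3 allows). The difference of 0.691 percentage points was 0.256 without 22 month replicate 1.

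As an anticodon sum, over the IDs of 1 anticodon with a mature parent, Asn-GTT lay at 9079, 13540 and 12240 CPM at 3 months and at 35610, 18200 and 15640 CPM at 22 months. These CPM are of the summed tags and stand on another scale than those of single IDs. The log2 difference was 0.99 (SE 0.37) and did not pass over the 39 sums (edgeR, adjusted p = 0.144), of which 2 rose (5.13%), Ile-TAT and Phe-GAA. All 3 aged libraries lay above the young ones, as in 23.1% of the sums. It ranked 8 of 39, and the median sum was at 0.04. The call varied with the setting. With precursor-only IDs added for every anticodon the difference was 1.15 and passed (edgeR, adjusted p = 0.0309). With the same IDs as at first but DESeq2 it was 1.06 and passed (DESeq2, adjusted p = 0.0123). Without 22 month replicate 3 it was 1.21 and also passed (edgeR, adjusted p = 0.0476), and without replicate 1 it was 0.68 and did not (edgeR, adjusted p = 0.125).

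The make-up of the Asn-GTT tags does not depend on how libraries are scaled to each other. AS-tDR-007408 made up 26.1%, 27.8% and 28.6% of them at 3 months and 25.6%, 20.3% and 21.9% at 22 months, and was the leading fragment in each library. AS-tDR-001757 went from 6.23%, 5.9% and 7.3% to 1.57%, 2.69% and 1.89%. For both, every aged library lay below every young one.

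AS-tDR-010804 made up 4.15%, 5.9% and 4.59% of the Asn-GTT tags at 3 months and 7.28%, 7.67% and 7.9% at 22 months. AS-tDR-012677 went from 5.04%, 5.41% and 4.86% to 7.65%, 5.8% and 8.01%, and AS-tDR-015068 from 0% in each library to 2.59%, 2.8% and 3.11%. These 3 took a higher listed share in every aged library. The 0% of AS-tDR-015068 stands for any count under the listing minimum. In 3 month replicate 1 that minimum was 11 tags among 337 Asn-GTT tags. A share like the aged ones could have gone unlisted there, so the separation of AS-tDR-015068 rests on its zeros. With AS-tDR-001746, which lay lower, 3 of 13 shares were separated upward, 3 downward and 7 overlapped. Each of the 6 had p = 0.1, the smallest the exact two-sided permutation test allows, and 0.217 after adjustment over the 13.

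By class, the 6 IDs listed under Asn-GTT-3 held 78.8% ± 1.46 of the Asn-GTT tags in the young libraries and 78.4% ± 2.32 in the aged ones (mean ± SD over 3 libraries). The 4 under Asn-GTT-1-1 without Asn-GTT-2-1 held 9.99% ± 1.15 and 18.8% ± 2.4, and the 3 under Asn-GTT-2-1 held 11.3% ± 2.13 and 2.81% ± 0.986. In the young brains the last of these classes thus took about as many tags as the middle one, with 46, 39 and 39 tags against 31, 46 and 35. In the aged brains it had 64, 26 and 17 tags against 319, 157 and 189. By library totals alone the class under Asn-GTT-2-1 lay at 801, 864 and 883 CPM at 3 months and at 900, 270 and 200 CPM at 22 months. In 22 month replicate 1 its level was thus above every young library, although its share there was 3.85%. A share also falls when the other Asn-GTT tags increase. The classes were drawn with these values known and were not tested. In the middle class AS-tDR-015068 and AS-tDR-015084 were listed at 0 in every young library, so they could add to the aged side only. Its other IDs, AS-tDR-010804 and AS-tDR-012677, had mean shares of 4.88% and 5.1% at 3 months and 7.62% and 7.15% at 22 months. The listing minimum also falls on the low counts of the class under Asn-GTT-2-1. In 22 month replicates 2 and 3 it was 17 tags, out of 965 and 899 Asn-GTT tags. At 3 months it was 8 to 11 tags, out of 337 to 407. It was thus higher in tags in those aged libraries, but not as a share of Asn-GTT tags. Its part in the differences between the ages was not tested.

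**Figure D3:**
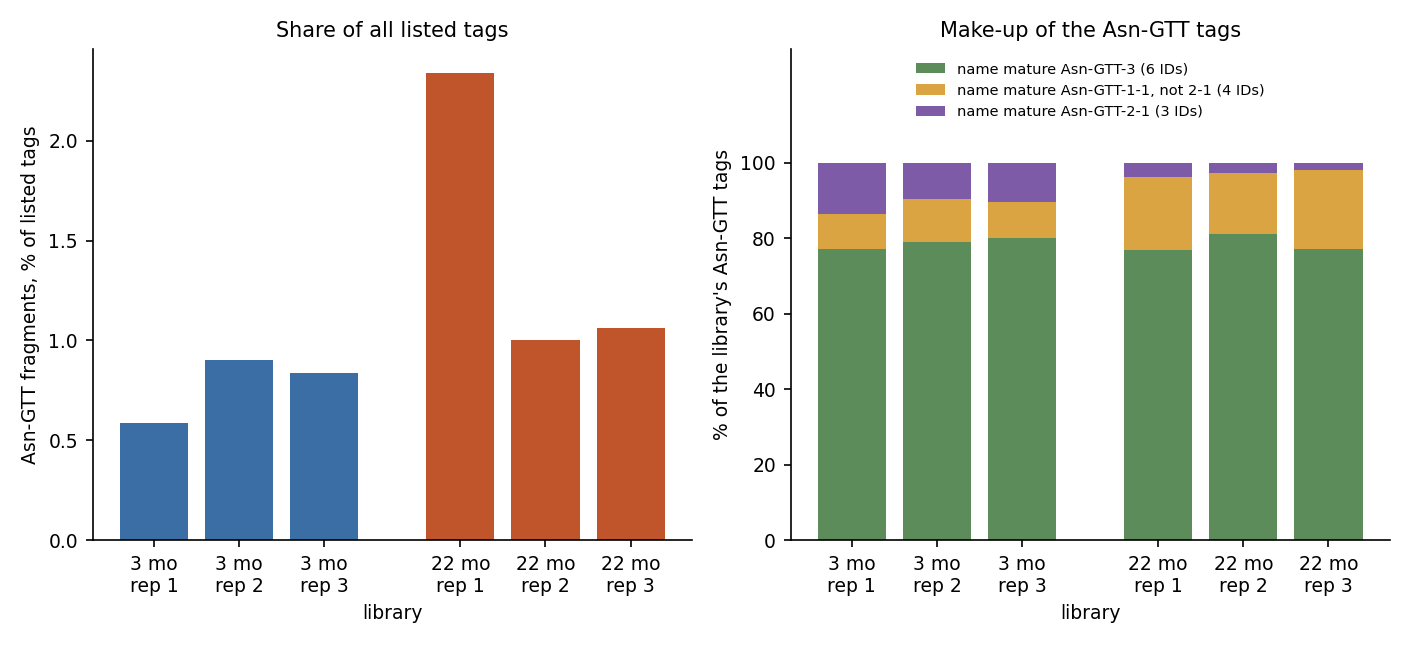
Left, Asn-GTT fragments as a percentage of all listed tags in each library (3 month libraries blue, 22 month orange). Right, how the Asn-GTT tags of each library divide between IDs listed under mature Asn-GTT-3 (green), under Asn-GTT-1-1 and not Asn-GTT-2-1 (yellow), and under Asn-GTT-2-1 (purple); the purple share is 9.58% to 13.6% at 3 months and 1.89% to 3.85% at 22 months.

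The other tRNAs whose anticodon carries queuosine were taken as the related list. Of 69 fragments of Asp-GTC, His-GTG and Tyr-GTA, 43 passed the filter. Of these, 2 rose, 0 fell and 41 missed the threshold (edgeR), a share near the 4.78% and 1.82% of all IDs. At an unadjusted p under 0.05, 6 were higher and 1 lower, against 15.7% and 9.79% of all IDs, and DESeq2 called 4 higher and 1 lower, against 13.4% and 8.66%. No call was left in this list when any 1 library was left out. Their median log2 difference was -0.17, also with IDs at 0 in one age at their bound, against 1.20 for Asn-GTT, and 17 were positive and 26 negative. By tRNA the medians were -0.01 for 9 Asp-GTC, -0.11 for 20 His-GTG and -0.22 for 14 Tyr-GTA fragments. The 2 that rose, AS-tDR-001808 and AS-tDR-001809, are both of Asp-GTC and, like AS-tDR-015068, were listed at 0 in all young libraries, with 59, 26 and 51 and with 54, 19 and 40 tags at 22 months. Both thus passed the filter only through the aged libraries, and no fragment of the list outside them was called. The difference between the lists was not tested.

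The anticodon sums with the profile most like that of Asn-GTT over the 6 libraries were all of leucine. Likeness was the mean absolute difference between log2 CPM of the sums after subtracting each sum's own mean, and a lower value means more alike. It was 0.207 for Leu-TAA, 0.228 for Leu-AAG and 0.25 for Leu-TAG, against a median of 0.719 over the 38 other sums. The 6 libraries and their scaling are shared by all sums. In each of these leucine sums, as in Asn-GTT, 22 month replicate 1 was the highest library. It lay at 60120 CPM for Leu-TAA, 9627 for Leu-AAG and 55230 for Leu-TAG. Their log2 differences were 0.83, 1.16 and 0.77, against 0.99 for Asn-GTT. None of the 3 passed the threshold (edgeR, adjusted p = 0.0623, 0.127 and 0.142). A like age difference follows in part from choosing sums by likeness.

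**Figure D4:**
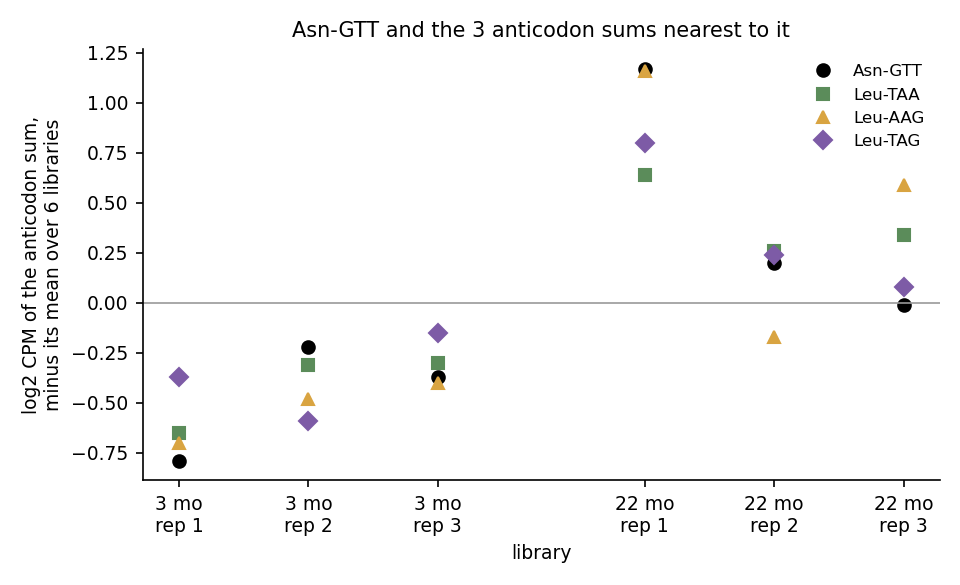
Log2 CPM of the Asn-GTT sum (black circles) and of the 3 sums nearest to it (Leu-TAA squares, Leu-AAG triangles, Leu-TAG diamonds) in each library, minus the mean of that sum over the 6 libraries. In all 4 sums 22 month replicate 1 is the highest point, at 1.17 for Asn-GTT, while 22 month replicate 3 lies at -0.01 for Asn-GTT and 0.59 for Leu-AAG.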

How the data were processed

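Small RNA was sequenced from 6 mouse brain libraries, 3 at 3 months and 3 at 22 months of age. The submitters' processing notes name FastQC, cutadapt, Novoalign and the build mm10. For the counting program, the origin of the IDs and the listing rule, the sources used here give nothing. Whole-number tag counts stand in the table that the authors deposited, repeated on each of an ID's lines (3257 in all, 1 per parent). Its title calls them normalized, but they were treated as counts. Each of the 591 IDs was taken once. Columns named Age and WT were read as 22 and 3 months. RNA was extracted with Trizol, per the labels' protocols.

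IDs were tested with edgeR 4.0.16 (R 4.3.3; filterByExpr with a minimum count of 10, TMM, quasi-likelihood test, no replicate term), and p-values were adjusted by Benjamini-Hochberg over 439 tested IDs. Each SE was derived as the log2 difference over the root of its F statistic. Shares were compared by exact permutation in scipy 1.17.1. DESeq2 1.42.0, limma-voom (limma 3.58.1), other scalings, filters, a replicate block and leaving out each library were alternatives. The members, lists and tests were chosen with earlier results of these data known. By the naming rule, values in every library are given for IDs past the threshold, the 3 most abundant, those at 0 in one age and those with a negative difference; the other Asn-GTT IDs are given too. Likeness was computed on log2 CPM (prior count 2) and named the 3 nearest sums. The IDs overlap and share gene copies, so they are not independent, and listed totals limit precision to that of 337 to 1661 Asn-GTT tags per library.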

Additional observations from a re-analysis of the deposited data

How the results depend on the processing

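All 11 tested Asn-GTT IDs kept the sign of their log2 difference in every alternative that gave a value. The number past the threshold, 3, was 0 by library totals alone, scaled to the smallest listed count, with no filter on low counts or with a replicate block, 6 over the IDs above 0 in all 6 libraries, 7 with DESeq2, and 0 to 2 with 1 library left out. Over all IDs the calls moved likewise, from 29 to 0 in each of the first 4 settings, 65, 97, and 0 to 14. The other queuosine tRNAs, with 2, had 0 by library totals alone, scaled to the smallest listed count, with no filter or with a replicate block, 1 with each 0 replaced by a count 1 under the library's minimum, 5 with DESeq2, and 0 in each fit with 1 library left out. The cause was not tested. The Asn-GTT sum, at 0.99, passed with DESeq2 (1.06, adjusted p = 0.0123), with precursor-only IDs (1.15) and without 22 month replicate 3, and lay between 0.68 and 1.21 with 1 library left out. Filters on low counts were not run on the sums. The share of listed tags stayed higher at 22 months in each alternative, by 0.256 to 0.922 points with 1 library left out. Shares of Asn-GTT tags that changed sign were those of AS-tDR-000195 (0.0232 without 3 month replicate 1, 0.0791 without 22 month replicate 2, range -1.76 to 0.0791), AS-tDR-011106 (0.381 without 3 month replicate 1, range -1.25 to 0.381) and AS-tDR-012678 (-0.556 and -0.251 without 3 month replicates 1 and 2, -1.29 without 22 month replicate 1, range -1.29 to 2.28). Correlations of deviations from the age mean were -0.46, 0.04 and -0.34 between libraries of equal replicate number. Between unlike numbers they lay between -0.07 and 0.44. Deviations within 3 libraries depend on each other, so these correlations cannot decide whether equal numbers pair the samples. With the replicate block the sum was at 0.91. The share difference stayed at 0.691, which a balanced block cannot change. Its p was 0.25 by exact permutation within replicate numbers, against 0.1 by exact permutation without them. Levels below 174 to 236 CPM cannot be seen.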

Other observations

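AS-tDR-009021, the 1 Asn-GTT ID listed under precursors only (those of Asn-GTT-3-3, Asn-GTT-3-4 and Asn-GTT-3-8), had 0, 0 and 17 tags in 3 month replicates 1, 2 and 3 and 44, 0 and 27 tags in the 22 month replicates. Both ages thus held a library with the fragment above the minimum and one without. Its log2 difference was 1.45 (SE 2.17; edgeR, adjusted p = 0.702).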
